A study of Mus musculus with 9 samples.

Results

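H19 and 9 other imprinted growth genes (Igf2, Dlk1, Meg3, Rian, Mirg, Peg3, Plagl1, Mest and Grb10) were looked up by symbol in RNA sequencing data from C2C12 myotubes. Of these 10 genes, 4 were listed among the 10716 genes of the deposited table, namely H19, Igf2, Peg3 and Mest. The other 6, among them all 4 genes of the Dlk1 and Meg3 cluster, were found neither by symbol nor by Ensembl identifier and were not analysed here. C2C12 is a mouse myoblast line whose cells fuse into multinucleated myotubes when made to differentiate. The myotubes of all 3 groups were cultured for 24 h, the control group with vehicle, the next with dexamethasone at 50 µM, and the last with that dose of dexamethasone and 10 µM THSG, with 3 libraries per group. Dexamethasone is a synthetic glucocorticoid used to induce atrophy of cultured muscle cells, and THSG is given in the labels by this abbreviation only. No group received THSG alone. By their titles all libraries came from the same cell line, so each group stands for cultured myotubes and not for muscle tissue.

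An imprinted gene is transcribed mainly from the chromosome inherited from a given parent, through DNA methylation laid down in the germ line. H19 is a long noncoding RNA made from the maternal chromosome, and its neighbour Igf2, the foetal growth factor insulin-like growth factor 2, is made from the paternal one. The boundary factor CTCF binds the unmethylated control region upstream of maternal H19 and keeps shared enhancers away from Igf2. Peg3, a zinc finger protein, and Mest, a protein of the alpha/beta hydrolase fold family, are paternally expressed and affect the growth of the embryo. In muscle, H19 and Igf2 are switched on as myoblasts differentiate. The table gives 1 value per gene, so maternal and paternal transcripts were summed and imprinting itself was not measured.

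Of the 4 listed genes, 3 host microRNAs within their annotated bodies, H19 the mir-675 hairpin, Igf2 that of mir-483 and Mest that of mir-335. Their mature sequences are shown because they are short products of the loci whose RNA was measured, together with let-7a, a microRNA that H19 RNA has been reported to bind. They come from RefSeq (build GRCm38.p6) and are written 5′ to 3′, with the seed, bases 2 to 8, in capitals.
mmu-miR-675-5p: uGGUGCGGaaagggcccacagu
mmu-miR-675-3p: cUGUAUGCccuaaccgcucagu
mmu-miR-483-5p: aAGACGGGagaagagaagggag
mmu-miR-483-3p: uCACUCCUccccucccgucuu
mmu-miR-335-5p: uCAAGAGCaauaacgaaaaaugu
mmu-miR-335-3p: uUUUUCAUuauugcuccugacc
mmu-let-7a-5p: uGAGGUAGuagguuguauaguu
The 5p arm of the H19 hairpin lies at chr7:142577112-142577133 and the 3p arm at chr7:142577078-142577099, both on the minus strand. The Igf2 arms lie on the same strand at chr7:142654968-142654989 and chr7:142654932-142654952, and the Mest arms on the plus strand at chr6:30741314-30741336 and chr6:30741354-30741375. The 6 hosted arms carry 6 different seeds, while let-7a shares its seed GAGGUAG with 7 other let-7 names in the RefSeq table. Of 7 annotated H19 transcripts, 3 contain the mir-675 hairpin, the longest of them 2286 bases long. The letters CTACCTC, which pair with the let-7 seed, were in 0 of the 7 H19 transcripts. They were in 17.5% of 8803 transcripts about as long as the longest of the 7, and the other 6 H19 transcripts are shorter. The libraries were made from messenger RNA, so the mature microRNAs were not measured.

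The values were taken to be FPKM, a fragment measure per transcript length and sequencing depth, and summed to between 400218 and 422379 per library. Read counts were not given, so the depth behind each value is unknown. Every value in the table exceeds 1 FPKM, so genes below that level in any library are missing. Dexamethasone replicate 3 stood apart from the other libraries on the second principal component (-14.6 against -4.49 to 7.29), with 14% of its summed FPKM in mitochondrially encoded genes against 10.5% to 12% elsewhere. Fkbp5, a glucocorticoid target, was 6.57 ± 0.214 FPKM with vehicle and 97.8 ± 0.377 with dexamethasone (mean ± SD, n = 3). All 15 myotube markers were listed, with sums of 11490 to 12850 FPKM with vehicle, 12260 to 13090 with dexamethasone and 12950 to 13260 with THSG added. With dexamethasone 12.7% of all genes were higher and 20.9% lower (limma, adjusted p under 0.05), and of these markers 9 were higher and 1, Des, was lower; the call for Des was lost under each other scaling between libraries. Of 11 markers of cycling myoblasts 7 were listed, and all 7 were lower with dexamethasone, with sums of 69.36 to 72.88 FPKM with vehicle, 31.75 to 34.3 with dexamethasone and 31.51 to 35.73 with THSG added; Mki67, Bub1, Aurkb and Cenpf were not listed. Of 12 markers of reserve and fibroblast-like cells 9 were listed, 3 higher (Myf5, Pdgfra and Ly6a) and 6 lower, and Thy1, Dpt and Pi16 were not listed. The sums of the 9 were 1127 to 1211 FPKM, 762.3 to 789 FPKM and 804.9 to 828.3 FPKM in the same order. Of these sums Col3a1 alone gave 580 ± 23.4 FPKM with vehicle. Of the adipocyte markers only Pparg was listed (1.996 to 3.657 FPKM over the 9 libraries), and of 6 immune and 5 endothelial markers none was.

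The comparison of dexamethasone with vehicle asked how the glucocorticoid alone altered these genes. H19, Igf2 and Peg3 were higher and Mest was lower with dexamethasone. All 4 listed genes passed the test (limma, adjusted p under 0.05 over all genes), 3 higher and 1 lower, where 33.6% of all genes passed, 12.7% higher and 20.9% lower. In each of the 4 no vehicle library reached into the range of the dexamethasone libraries, which held for 45.9% of all genes. Among all called genes the share that was higher moved with the scaling between libraries, from 37.8% with values as deposited to 42.3% with equal sums, 49.6% with median-ratio scaling, 50.5% under quantile normalization and 51.9% once GC content and length were corrected for. The direction and the call of the 4 genes held under each of these scalings, and without dexamethasone replicate 3, where the log2 differences were 0.52 for H19, 0.66 for Igf2, 0.45 for Peg3 and -1.53 for Mest. The labels do not say that the libraries of a group came from separate cultures, so the p-values measure only the spread between these libraries.

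H19 was 2396, 2532 and 2333 FPKM in the vehicle libraries, 3441, 3507 and 3263 FPKM with dexamethasone, and 3309, 3662 and 3537 FPKM with dexamethasone plus THSG. The lowest of the 6 libraries with dexamethasone lay above the highest vehicle library, and the groups with and without THSG overlapped. H19 rose from 2420 ± 102 to 3404 ± 126 FPKM (SD, n = 3 each) with dexamethasone, which is 1.41-fold with a 95% interval from 1.27 to 1.55. On the scale of log2(FPKM + 0.1), used for all differences, the change was 0.49 (SE 0.066, limma adjusted p = 0.00013), and 12.9% of all genes had a larger change in either direction. It was already among the most abundant RNAs of the myotubes, at rank 13 of the table in each vehicle library. With dexamethasone its ranks were 6, 6 and 9, and with THSG added 6, 4 and 5. H19 took 0.567% to 0.607% of the summed FPKM in the vehicle libraries, 0.795% to 0.865% with dexamethasone and 0.789% to 0.904% with THSG added. In these bulk libraries, fewer cells of a type and less RNA per cell cannot be told apart. The lower sums of the cycling markers moved with the rise of H19, and their part in it was not tested.

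**Figure D1:**
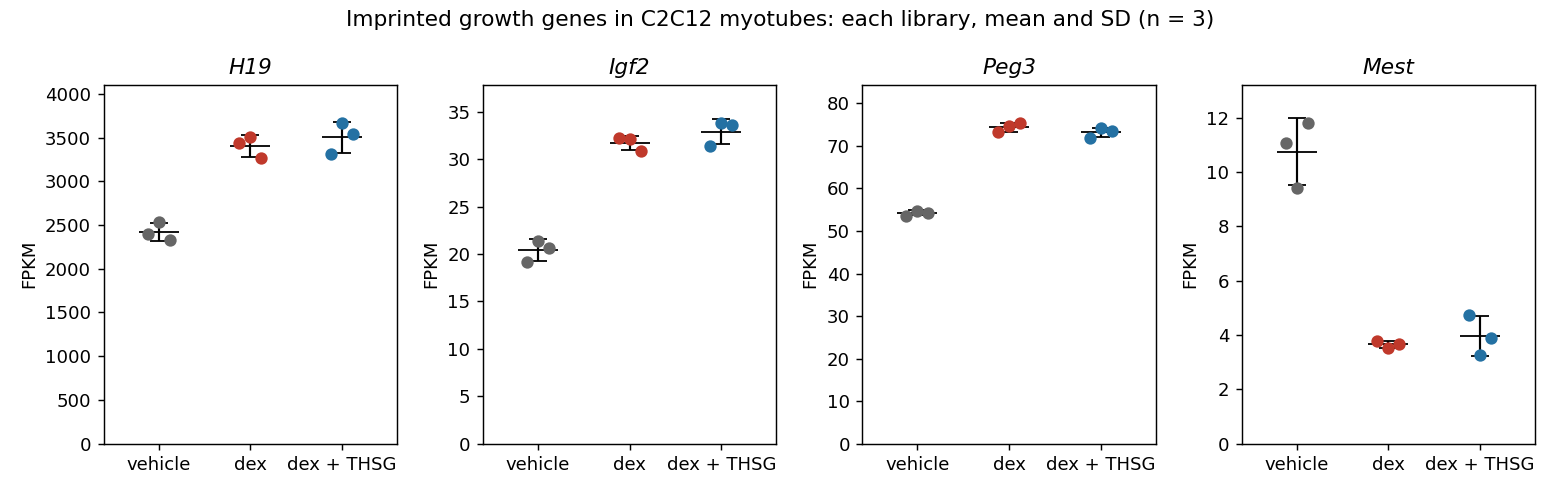
FPKM of H19, Igf2, Peg3 and Mest in each library (points), with the mean (long bar) and SD (error bar) of 3 libraries per group, on linear axes that start at 0. For every gene the 3 vehicle libraries lie apart from the 6 libraries with dexamethasone (dex), above them for Mest and below them for the other genes, while the groups with and without THSG overlap.

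Igf2 stood at a far lower level than H19 and moved the same way. It was 19.15, 21.42 and 20.61 FPKM with vehicle, 32.21, 32.10 and 30.88 FPKM with dexamethasone, and 31.40, 33.79 and 33.58 FPKM with THSG added. All 6 libraries with dexamethasone lay above all vehicle libraries. Igf2 rose from 20.4 ± 1.15 to 31.73 ± 0.738 FPKM, 1.55-fold (95% interval 1.43 to 1.69; log2 difference 0.64, SE 0.056, limma adjusted p = 4.14e-06). A larger change was seen in 8.07% of all genes.

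The ratio of H19 to Igf2 within a library is the same whatever single factor scales that library, though not under quantile normalization or the correction for GC content and length. It was 125.1, 118.2 and 113.2 in the vehicle libraries, 106.8, 109.3 and 105.7 with dexamethasone, and 105.4, 108.4 and 105.3 with THSG added. The 3 vehicle ratios were the highest of the 9. The mean log2 ratio with dexamethasone differed from vehicle by -0.14 (two-sided exact permutation test, p = 0.1, the smallest that 3 against 3 libraries allow). With THSG added it differed from dexamethasone alone by -0.01 (exact permutation p = 0.5). Against vehicle the difference with THSG added was -0.16 (exact permutation p = 0.1). Both genes were thus higher with dexamethasone, and their ratio differed by less than either gene did. Under quantile normalization their log2 differences from vehicle lay further apart, at 0.36 for H19 and 0.67 for Igf2. The size of the ratio rests on the transcript lengths that the authors used, which are not stated. In the GRCm38 annotation Igf2 is overlapped by Gm49394 on the same strand and by Igf2os on the opposite strand. H19 is overlapped by Gm27483 and Gm27786 on the opposite strand, and none of these genes was listed. How reads shared by overlapping genes were counted is not stated, so the levels behind the ratio are uncertain.

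**Figure D2:**
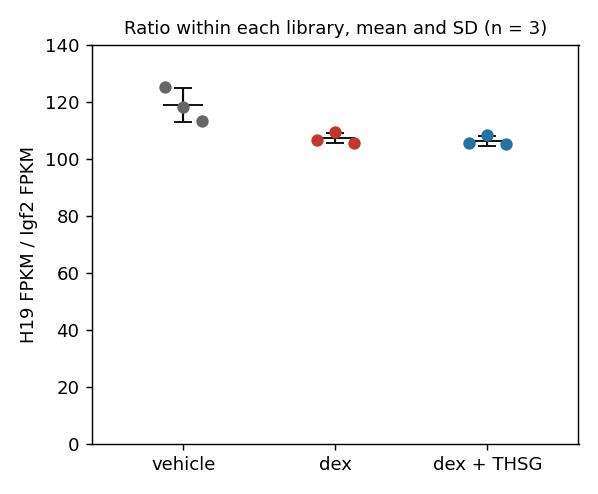
Ratio of H19 FPKM to Igf2 FPKM within each library (points), with the mean and SD of 3 libraries per group, on a linear axis that starts at 0. The vehicle ratios (113.2 to 125.1) lie above those with dexamethasone (105.7 to 109.3) and with THSG added (105.3 to 108.4), and the latter groups overlap.

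The neighbours of H19 on chromosome 7 that were listed did not all follow it. In gene order these were Prr33, Tnnt3 and Mrpl23 on the side away from Igf2, then H19, Igf2, Ins2 and Cd81. Tnnt3, the fast skeletal troponin T, was 977.81, 1038.22 and 923.54 FPKM with vehicle and 1224.7, 1208.15 and 1166.99 with dexamethasone. It rose by a log2 difference of 0.29 (SE 0.053, limma adjusted p = 0.00128). Mrpl23, a mitochondrial ribosomal protein and the listed gene next to H19, was 31.4 ± 0.999 and 29.5 ± 2.37 FPKM (log2 difference -0.09, 95% interval -0.23 to 0.05, adjusted p = 0.32). Prr33 differed by 0.14 (interval -0.09 to 0.37, adjusted p = 0.342). Ins2, an insulin gene next to Igf2, ranged from 2.14 to 7.88 FPKM among the vehicle libraries alone, and its interval from -1.35 to 0.33 is wide. Cd81, a tetraspanin further along the chromosome, was 236 ± 2.89 and 242 ± 0.217 FPKM (0.04, adjusted p = 0.422), and was called under quantile normalization (0.12) and once GC content and length were corrected for (0.12).

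**Figure D3:**
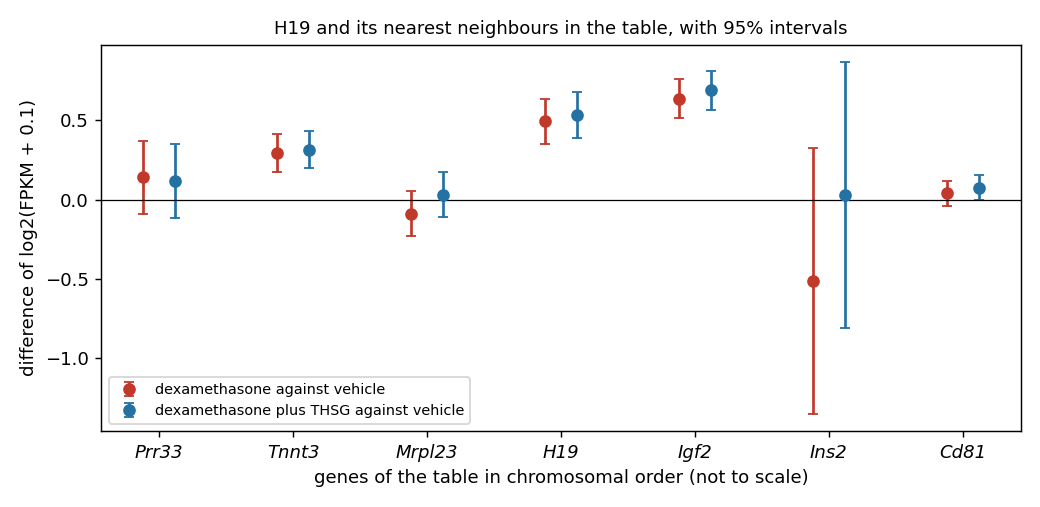
Difference from vehicle on the scale of log2(FPKM + 0.1) for H19 and its nearest listed neighbours in chromosomal order (not to scale), with 95% intervals, for dexamethasone and for dexamethasone plus THSG. Igf2, H19 and Tnnt3 lie above 0 with intervals that do not reach it, and the interval of Ins2 is the widest.

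Peg3 was the least variable of the 4 genes between replicates. It was 53.64, 54.80 and 54.32 FPKM with vehicle, 73.20, 74.62 and 75.30 FPKM with dexamethasone, and 71.94, 74.18 and 73.39 FPKM with THSG added. The groups with and without dexamethasone lay far apart relative to their spread. Peg3 rose from 54.25 ± 0.583 to 74.37 ± 1.07 FPKM, 1.37-fold (95% interval 1.29 to 1.45; log2 difference 0.45, SE 0.038, limma adjusted p = 2.77e-06). A larger change was seen in 14.6% of all genes. Zim1, a zinc finger gene and the immediate listed neighbour of Peg3, is maternally expressed. Its values were 14.75, 15.25 and 15.94 FPKM with vehicle, 24.43, 23.99 and 24.39 FPKM with dexamethasone, and 23.24, 24.31 and 27.65 FPKM with THSG added. Zim1 rose by 0.66 on the log2 scale (SE 0.067, limma adjusted p = 1.32e-05), so the neighbouring genes of opposite parental origin were both higher with dexamethasone.

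Mest went the other way and had the largest change of the 4 genes. It was 11.07, 9.394 and 11.79 FPKM with vehicle, 3.788, 3.516 and 3.655 FPKM with dexamethasone, and 4.718, 3.267 and 3.896 FPKM with THSG added. Every library with dexamethasone lay below every vehicle library. Mest fell from 10.75 ± 1.23 to 3.653 ± 0.136 FPKM, to 0.347 of its vehicle level (95% interval 0.284 to 0.424; log2 difference -1.53, SE 0.132, limma adjusted p = 3.7e-06). A larger change was seen in 0.933% of all genes. Copg2, a coat protein gene that overlaps Mest on the opposite strand, was 15.9 ± 0.612 and 16.7 ± 1.08 FPKM (log2 difference 0.07, adjusted p = 0.429). Neither the strand setting of the counting nor the handling of reads shared by both genes is stated. How the overlap affected either value is therefore unknown. Cep41, a centrosomal protein gene and the nearest listed gene on the other side, fell from 4.61 ± 0.795 to 2.49 ± 0.306 FPKM (log2 difference -0.86, SE 0.154, limma adjusted p = 0.00117); Copg2 and Cep41 were chosen as neighbours after their values were seen.

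In level, the order H19, Peg3, Igf2, Mest held in each of the 9 libraries, and the ranges of neighbouring genes did not overlap. Peg3 exceeded 88.3% to 92.4% of all genes of a library, Igf2 64.5% to 80.6% and Mest 12.8% to 47.6%. The share of genes below Mest was thus the most variable of the 4.

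Promoter windows were searched because 3 of the genes rose with a glucocorticoid and the other fell. RefSeq gave windows of 250 bases upstream of a start for Igf2, Peg3, Mest and Zim1. It gave none for H19, so H19 was not searched. Searched on both strands were AGAACA, the hexamer of the glucocorticoid response element, the full palindrome of that element (the hexamer, any 3 bases and its reverse complement), and the E-box CANNTG bound by myogenic factors. The windows shown are the one Igf2 window that holds the hexamer and a Mest window without it, with matches in capitals, 5′ to 3′ on the gene's strand.
Igf2 chr7:142666817-142667066, minus strand: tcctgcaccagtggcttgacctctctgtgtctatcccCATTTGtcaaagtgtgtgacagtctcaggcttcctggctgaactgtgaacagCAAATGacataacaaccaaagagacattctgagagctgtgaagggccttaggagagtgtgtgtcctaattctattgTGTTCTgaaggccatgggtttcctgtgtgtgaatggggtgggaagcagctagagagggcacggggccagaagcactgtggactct
Mest chr6:30737800-30738049, plus strand: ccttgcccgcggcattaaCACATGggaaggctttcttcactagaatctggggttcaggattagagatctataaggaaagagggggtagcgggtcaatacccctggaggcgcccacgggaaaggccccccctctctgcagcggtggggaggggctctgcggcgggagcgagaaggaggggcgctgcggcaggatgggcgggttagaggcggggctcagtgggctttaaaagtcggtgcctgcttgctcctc
The Igf2 window holds 1 hexamer, written TGTTCT, and 2 E-boxes, and the other 3 Igf2 windows hold neither. The Mest window holds 1 E-box, a further window shifted by 3 bases the same one, and the third Mest window 2 E-boxes. The Peg3 and Zim1 windows hold neither motif, and the palindrome is in none of the windows. Over 32851 windows of this length, 16.1% hold the hexamer, 66.2% an E-box and 0.00913% the palindrome. Which start sites the myotubes used was not measured, and the windows are given as descriptions only.

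Other imprinted genes came from a list of 60, of which 27 were in the table. With dexamethasone 6 were higher and 3 lower, so 9 of 27 passed beside 33.6% of all genes. Their median log2 difference was 0.035, beside -0.0502 for all genes. Of 11 paternally expressed genes 2 were higher and 0 lower (limma, with 2 at an unadjusted p under 0.05, which 43.5% of all genes had), and of 16 maternally expressed genes 4 were higher and 3 lower. Many of these genes are imprinted in some tissues only, and 33 of the 60 were not listed. The count of higher genes was 7 or 8 with median-ratio scaling, quantile normalization or the correction for GC content and length, and that of lower genes 2 or 3. Without dexamethasone replicate 3 the counts were 5 higher and 3 lower.

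Dcn, the matrix proteoglycan decorin, had the largest change of the list. It was 81.67, 80.32 and 71.89 FPKM with vehicle, 32.37, 28.69 and 36.27 with dexamethasone, and 32.75, 28.81 and 29.13 with THSG added, with no overlap between vehicle and the rest. It fell by 1.27 on the log2 scale (SE 0.085, limma adjusted p = 4.42e-07). The sums of the reserve and fibroblast-like markers were lower in the same libraries. Of the 9 listed, however, 3 were higher, namely Pdgfra (1.31), Myf5 (1.05) and Ly6a (0.51). The part of these cells in the fall of Dcn was not tested. Gatm, which makes the precursor of creatine, rose from 43.2 ± 1.53 to 53.2 ± 1.23 FPKM (0.30, adjusted p = 0.00065). Dhcr7, the last enzyme of cholesterol synthesis, rose from 46.2 ± 2.27 to 58.8 ± 3.44 FPKM (0.35, adjusted p = 0.000669). The remaining calls, named after their values were seen, were Peg10 (0.47), Atp10a (0.33) and Impact (0.17), which were higher, and Commd1 (-0.39) and Pon3 (-0.27), which were lower; the call for Pon3 was lost under each other scaling, and those for Atp10a, Impact and Commd1 without dexamethasone replicate 3. Gnas, the most abundant member, stood at 668 ± 12.9 and 670 ± 10.6 FPKM (0.00, interval -0.09 to 0.10); its locus makes transcripts of either parental origin, which the table sums. Snurf ranged from 3.75 to 38.14 FPKM among the dexamethasone libraries alone, and it shares a transcript with Snrpn, so its value is uncertain.

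**Figure D4:**
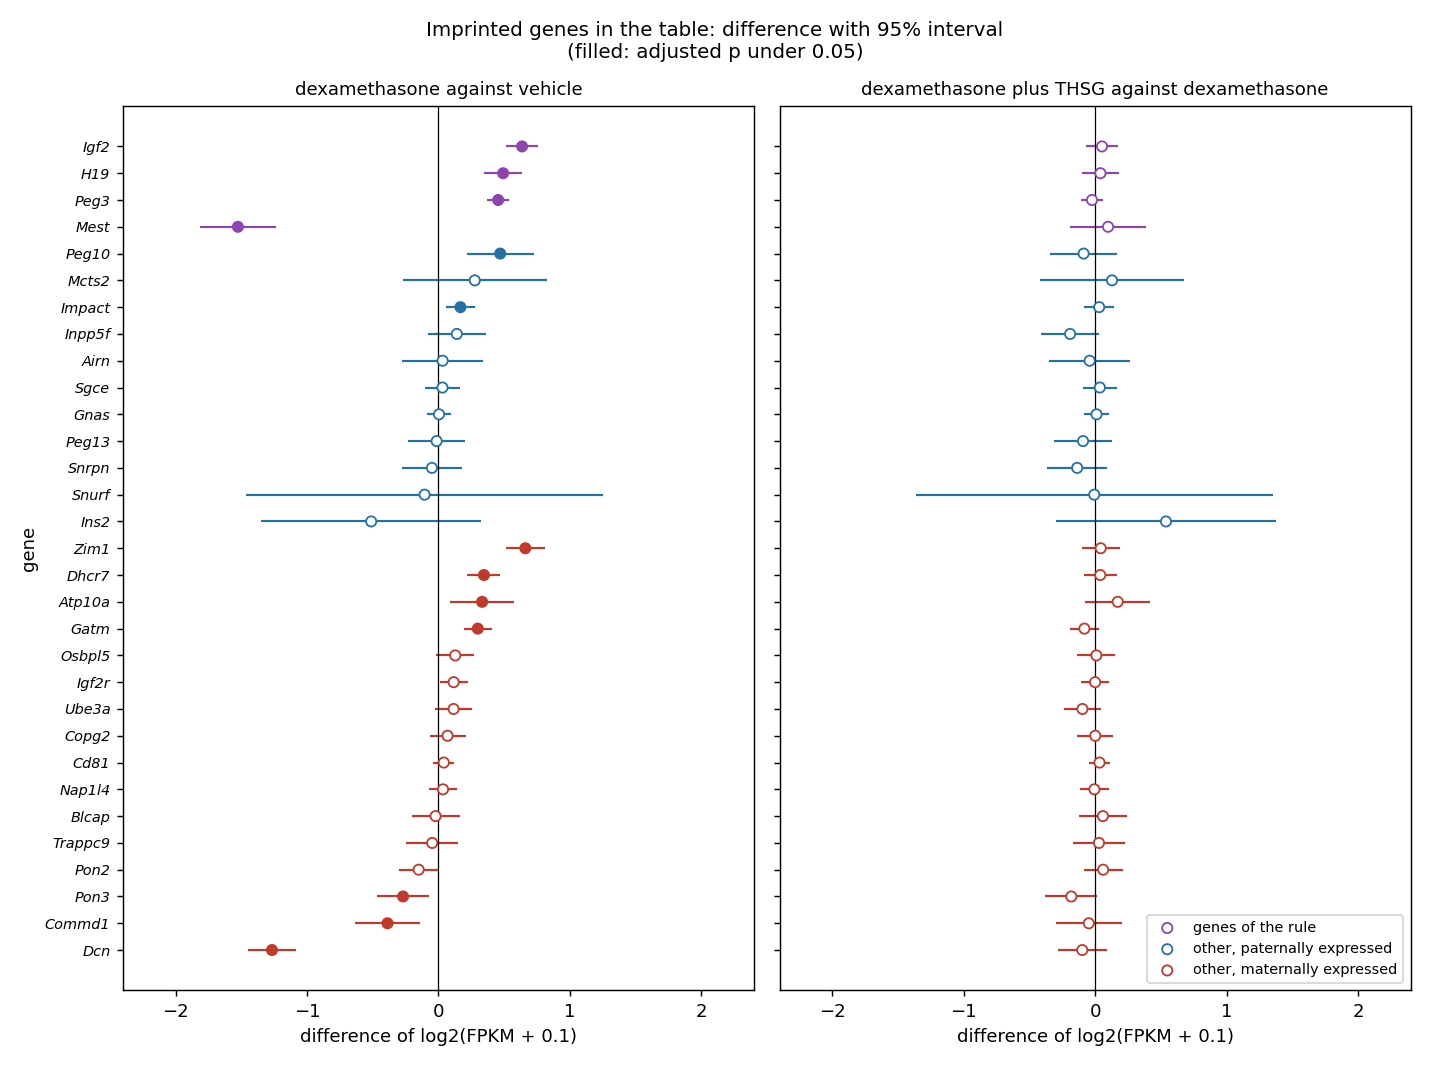
Difference on the scale of log2(FPKM + 0.1) with its 95% interval for the 4 listed growth genes and the 27 other imprinted genes, by parental origin, for dexamethasone against vehicle (left) and dexamethasone plus THSG against dexamethasone (right); filled points passed an adjusted p of 0.05. Mest and Dcn lie farthest below 0 on the left, and no point on the right is filled.

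Factors that keep or read imprints were listed next. Of 25 such genes 23 were in the table, with 2 higher and 6 lower with dexamethasone and a median log2 difference of -0.026. These 8 calls among 23 genes stand beside 33.6% of all genes, so the share is near the background. Uhrf1, which brings the maintenance methyltransferase to newly copied DNA, was 5.26, 5.01 and 5.06 FPKM with vehicle, 1.88, 2.17 and 1.47 with dexamethasone, and 1.58, 2.01 and 2.05 with THSG added. The vehicle libraries were the highest 3. Uhrf1 fell by 1.44 (SE 0.154, limma adjusted p = 2.13e-05), and Dnmt1, the methyltransferase itself, fell from 11.3 ± 0.175 to 8.23 ± 0.908 FPKM (log2 difference -0.45, adjusted p = 0.00146). Ezh2, a Polycomb methyltransferase, fell from 7.94 ± 0.325 to 5.74 ± 0.146 FPKM (-0.46, adjusted p = 0.00196). Uhrf1, Dnmt1 and Ezh2 are also known for high expression in dividing cells, and the cycling markers were lower in the same libraries; their part in these falls was not tested. Trim28, the co-repressor that zinc finger proteins recruit to imprints, fell from 45.6 ± 2.14 to 36.8 ± 1.29 FPKM (-0.31, adjusted p = 0.000794). Ctcf, which binds the H19 control region, was 15.5 ± 1.14 and 15.1 ± 1.15 FPKM (-0.03, interval -0.19 to 0.13), and the cohesin subunit Rad21 50.6 ± 0.9 and 51.4 ± 3.14 FPKM (0.02, interval -0.09 to 0.13). Ehmt2, a histone methyltransferase, was 40.1 ± 2.68 and 36.1 ± 1.51 FPKM (-0.15, adjusted p = 0.066). Among the less certain calls, Zfp57 (-0.28) was lost with median-ratio or quantile scaling and after the correction for GC content and length, Mbd3 (-0.29) moved to -0.065 after that correction and lost its call also without dexamethasone replicate 3, and Arid4a (0.24) lost its call after the correction only.

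IGF2 acts through the IGF1 receptor and the insulin receptor, is cleared by the IGF2 receptor, and is held by secreted binding proteins. Of 20 genes of this pathway 17 were listed, with 5 higher and 5 lower and a median log2 difference of -0.062, beside 12.7% higher and 20.9% lower among all genes. Among the receptors, Insr rose from 8.99 ± 0.581 to 12.1 ± 0.531 FPKM (0.42, limma adjusted p = 0.000699), while Igf1r was 9.37 ± 0.606 and 8.96 ± 0.149 FPKM (-0.06, interval -0.22 to 0.10). Igf2r, itself imprinted, was 31.13, 29.71 and 29.2 FPKM with vehicle and 32.5, 33.86 and 31.22 with dexamethasone (log2 difference 0.12, adjusted p = 0.0909), and was called with median-ratio (0.16) and quantile scaling (0.16). Of the 5 Igfbp genes listed, all but Igfbp2 were lower, namely Igfbp4, Igfbp5, Igfbp6 and Igfbp7. The last makes a secreted protein that is related to the IGF binding proteins. Igfbp2 was 80.2 ± 1.84 and 74.9 ± 7.36 FPKM (-0.10, adjusted p = 0.243), and was called without dexamethasone replicate 3 (-0.17). Igfbp4 was 31.66, 36.57 and 33.88 FPKM with vehicle, 6.28, 5.85 and 5.69 with dexamethasone, and 5.64, 7.17 and 4.76 with THSG added, with no vehicle value near the rest. It fell by 2.5 on the log2 scale (SE 0.124, limma adjusted p = 3.42e-08), and Igfbp5, the most abundant of them, fell from 422 ± 9.18 to 284 ± 7.64 FPKM (-0.57, adjusted p = 6.7e-07). Downstream, the adaptors went in opposite directions. Irs1 fell from 21.9 ± 0.75 to 12.7 ± 0.588 FPKM (-0.78, adjusted p = 1.5e-06), and Pik3r1, a regulatory subunit of phosphoinositide kinase, rose from 14.3 ± 0.362 to 25.2 ± 1.76 FPKM (0.81, adjusted p = 9.61e-07). Irs2, the listed relative of Irs1, rose from 5.105 ± 0.202 to 8.997 ± 0.22 FPKM (0.81, limma adjusted p = 7.43e-06). The kinase gene Akt1 was 116 ± 7.63 and 117 ± 1.33 FPKM (0.01), and was called only after the correction for GC content and length (0.18). Its relative Akt2 rose from 82.4 ± 1.58 to 102 ± 4.73 FPKM (0.31, limma adjusted p = 0.00018). Irs2 and Akt2 were named after their values were seen.

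Genes listed as targets of the H19 microRNA or of let-7 were called in both directions. Of 25 such genes 18 were in the table, with 4 higher and 4 lower, beside 12.7% and 20.9% of all genes, and a median log2 difference of 0.071, which was -0.012 without dexamethasone replicate 3. The count of lower genes was 3 with median-ratio scaling, equal sums or without that replicate, and 2 under quantile normalization. It stayed at 4 after the correction for GC content and length, and the count of higher genes was 4 in each of these settings. Smad1 and Smad5, which carry bone morphogenetic protein signals, are listed targets of the H19 microRNA. Smad1 rose from 10.3 ± 0.838 to 12.5 ± 0.434 FPKM (0.28, limma adjusted p = 0.0177), and Smad5 was 19.2 ± 1.03 and 18.0 ± 0.395 FPKM (-0.09, adjusted p = 0.264). Among listed let-7 targets, Hmga2, a chromatin protein of growing tissue, was 17.32, 19.44 and 20.52 FPKM with vehicle, 34.41, 39.61 and 36.42 with dexamethasone, and 33.34, 38.02 and 34.79 with THSG added. The vehicle libraries were the lowest 3, and Hmga2 rose by 0.94 (SE 0.076, limma adjusted p = 2.16e-06). Its relative Hmga1 fell from 28.9 ± 2.58 to 19.2 ± 1.7 FPKM (-0.59, adjusted p = 0.000858), and the cyclin gene Ccnd1 fell from 9.45 ± 0.635 to 4.11 ± 0.21 FPKM (-1.18, adjusted p = 5.34e-06). Rb1, the retinoblastoma protein and another listed target of the H19 microRNA, rose from 34.6 ± 2.2 to 45.5 ± 4.06 FPKM (0.39, adjusted p = 0.000887). Nras, the most abundant member without a call, was 36.4 ± 5.29 and 37.3 ± 3.36 FPKM (0.04, interval -0.18 to 0.25).

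A last list held Notch, cell cycle arrest and receptor genes that work with the imprinted growth genes missing from the table, such as Dlk1 and Plagl1. Of 16 genes 14 were listed, with 4 higher and 5 lower, again beside 12.7% and 20.9% of all genes, and a median log2 difference of -0.038. The sign of such small medians moved with the scaling. This one was 0.008 with median-ratio scaling and 0.033 under quantile normalization, that of the imprint factors was 0.021, 0.045 and, after the correction for GC content and length, 0.005, and that of the IGF2 pathway was 0.005 under quantile normalization and 0.108 after the correction. Notch3, a Notch receptor, was 31.45, 28.97 and 32.51 FPKM with vehicle, 10.94, 11.13 and 10.12 with dexamethasone, and 11.2, 12.41 and 12.36 with THSG added. The vehicle libraries were clear of all others. Notch3 fell by 1.52 (SE 0.069, limma adjusted p = 1.76e-08), and Hes1, a transcriptional target of Notch, fell from 29.79, 27.91 and 26.59 to 12.99, 15.74 and 13.33 FPKM (-1.0, adjusted p = 2.05e-06). Notch2 fell by 0.32 and Heyl by 0.44. Notch1 (-0.02), Hey1 (-0.02) and Jag1 (-0.06) were not called. Heyl, Notch1, Hey1 and Jag1 were named after their values were seen. Ccng1, a p53 target, rose from 64.2 ± 0.976 to 83.6 ± 4.38 FPKM (0.38, adjusted p = 0.000108). Cdkn1a, the cell cycle inhibitor p21, was 799 ± 11.9 and 807 ± 9.92 FPKM (0.01), and was called only after the correction for GC content and length (0.12).

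**Figure D5:**
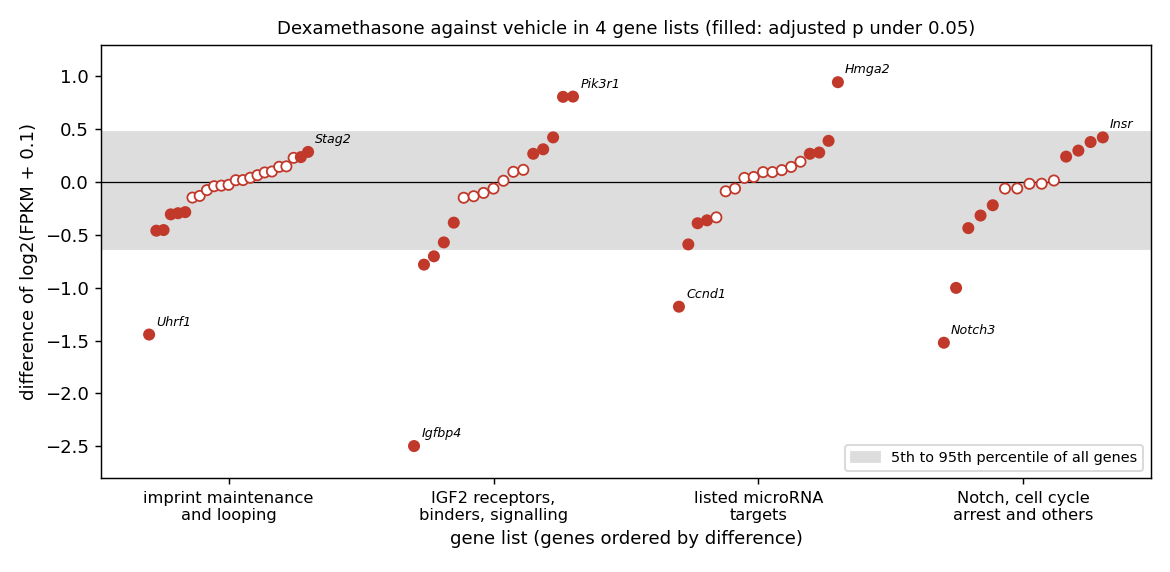
Difference between dexamethasone and vehicle on the scale of log2(FPKM + 0.1) for each listed gene of 4 lists, ordered by difference within a list; filled points passed an adjusted p of 0.05, and the grey band spans the 5th to 95th percentile of all genes (-0.637 to 0.47). Igfbp4, Notch3, Uhrf1 and Ccnd1 are the lowest of their lists, and Hmga2 the highest of all.

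The genes whose profile was most like that of H19 were described by Pearson's r of log2 values over the 9 libraries, without a test, since these libraries share the 3 groups. The 5 highest were Emp2, a membrane protein (r = 0.9965), Rassf3 (0.9956), the calcium sensor Stim1 (0.9945), Limd1 (0.9935) and slow myosin Myh7 (0.9907). Emp2 was 61.55, 65.67 and 61.27 FPKM with vehicle, 77.58, 79.14 and 75.85 with dexamethasone, and 76.27, 80.01 and 79.56 with THSG added. As for H19, the second vehicle library was the highest and the third the lowest of that group. The 5 lowest were Smg6, a nuclease of RNA decay (-0.9959), the collagen gene Col12a1 (-0.991), Nrp2 (-0.9897), Cmklr1 (-0.9896) and Srpx2 (-0.9893). Igf2 came at rank 9 of the other 10715 genes (0.9897), Peg3 at rank 74 (0.9754) and Mest at rank 10706 (-0.9867). With the group means removed, the value for Igf2 was 0.728, that for Peg3 0.42 and that for Mest -0.869, over the same 9 libraries. Removing the 3 means leaves fewer independent values than libraries. By the same measure Rassf3 reached 0.958 and Smg6 -0.958. The part of the scaling between libraries in these values was not tested.

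Setting THSG with dexamethasone against dexamethasone alone asked whether THSG altered these genes in the presence of the glucocorticoid. None of the 4 genes passed, and their groups overlapped. H19 was 3503 ± 179 FPKM with THSG and 3404 ± 126 without, a ratio of 1.03 with a 95% interval from 0.931 to 1.14 (log2 difference 0.04, limma adjusted p = 0.906). Igf2 was 32.92 ± 1.33 and 31.73 ± 0.738 FPKM, a ratio of 1.04 (0.953 to 1.13, adjusted p = 0.856). Peg3 was 73.17 ± 1.14 and 74.37 ± 1.07 FPKM, a ratio of 0.984 (0.929 to 1.04, adjusted p = 0.906). The interval of Mest was the widest of the 4, at 3.96 ± 0.728 and 3.653 ± 0.136 FPKM and a ratio of 1.07 (0.877 to 1.31, adjusted p = 0.89). These intervals leave room for differences of the size of their bounds. By limma 0% of all genes passed, 7.25% had an unadjusted p under 0.05, against 0 of the 4, and in 13.3% the groups did not overlap. Of the 27 other imprinted genes 0 passed, also at an unadjusted p under 0.05 (median log2 difference 0.001, and 0.0155 for all genes). No member of the other 4 lists passed by limma; at an unadjusted p under 0.05 were 2 of 17 pathway genes, 1 of 18 microRNA targets, 1 of 14 Notch and arrest genes and 0 of 23 imprint factors. Igfbp7, a secreted protein related to the IGF binding proteins and named after its values were seen, was 126.88, 116.62 and 125.48 FPKM with THSG and 108.4, 108.8 and 99.1 without (log2 difference 0.22, adjusted p = 0.557), with no overlap between the groups.

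Dexamethasone plus THSG set against vehicle uses the same vehicle libraries as the one above, so its values are set beside the others and not counted as further support. All 4 genes passed, 3 higher and 1 lower, where 29.1% of all genes passed, 12.1% higher and 17% lower. None of the 4 overlapped between groups, which held for 43.1% of all genes. H19 was 1.45-fold its vehicle level (log2 difference 0.53, SE 0.066, limma adjusted p = 7.57e-05), beside 1.41-fold with dexamethasone alone. Igf2 was 1.61-fold (limma adjusted p = 2.27e-06), beside 1.55-fold. Peg3 was 1.35-fold (limma adjusted p = 4.55e-06), beside 1.37-fold. Mest was at 0.372 of its vehicle level (limma adjusted p = 6.81e-06), beside 0.347. Of the 27 other imprinted genes 6 were higher and 3 lower, and of the 17 genes of the IGF2 pathway 5 and 6. Of the 23 imprint factors 0 were higher and 4 lower by limma, with 8 at an unadjusted p under 0.05 beside 39.1% of all genes.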

How the data were processed

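Per the labels, a Hybrid-R kit yielded the myotube RNA, and a TruSeq kit the stranded libraries. STAR 2.7.10a, featureCounts and build GRCm39 (mm39) are named in the submitters' processing notes. The authors deposited fractional values above 1, taken here to be FPKM; no header or label states the unit, the transcript lengths or the filter. Whole reads could not be recovered from low values. The cell line field numbers lines upward from C2C12, so the titles, which name C2C12 alone, were followed. Of 10716 identifiers, 10670 matched GENCODE GRCm38, and 49 symbols written as human were replaced by the mouse symbol. On the scale of log2(FPKM + 0.1), limma 3.58.1 (R 4.3.3) fitted 1 mean per group over all 9 libraries, with an intensity trend, two-sided tests and Benjamini-Hochberg adjustment over all genes (threshold 0.05); ratios used exact permutation tests. The fit was tested on simulated data. The members and lists were chosen with earlier results of these data known. Named were the 10 genes of the rule, up to 4 called genes per list by p and 2 uncalled by level, 5 genes most and 5 least like H19, and its neighbours; 1 gene that this gives is not reported here, and others are receptors, CTCF, listed targets and controls named with their values known. Alternatives covered pseudocount, scaling, filter, trend, samples, replicate block, GC content and length, and leaving out each library. Same-numbered libraries did not deviate together (r from -0.0862 to 0.107).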

Additional observations from a re-analysis of the deposited data

How the results depend on the processing

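Against vehicle, H19, Igf2, Peg3 and Mest kept direction and call in all 20 alternatives, for dexamethasone and for dexamethasone plus THSG (limma). With dexamethasone the log2 difference of H19 ran from 0.3625 (quantile normalization) to 0.6112 (correction for GC content and length), with adjusted p from 5.12e-06 to 0.0012, and leaving out single libraries gave 0.466 to 0.525. Igf2 ran from 0.592 to 0.7233, Peg3 from 0.43 to 0.5022 and Mest from -1.619 to -1.332. Between dexamethasone plus THSG and dexamethasone, H19 turned to -0.01398 after the correction for GC content and length, with or without the replicate block, and was 0.1695 under quantile normalization. Leaving out single libraries gave -0.03254 to 0.2261 for Mest there, negative only without dexamethasone plus THSG replicate 1, and -0.02539 to 0.001585 for the log2 ratio of H19 to Igf2, positive only without dexamethasone replicate 2. None of these values was called, and the cause was not tested. In that comparison the genes called among all genes were 0, with a range of 0 to 1 over left-out libraries (Cks2 without dexamethasone replicate 3), 1 with the replicate block and 1 with the block and the correction (Rps2-ps10 in both). The replicate block, chosen although same-numbered libraries did not deviate together, left H19 at 0.4921 against vehicle (limma adjusted p = 0.000181). List counts under other scalings were added after seeing the data. Depth is unknown, so Mest, near 4 FPKM, and other low genes are limited by a counting error that cannot be given.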
